A study of Mus musculus with 75 samples.

Results

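Snap25, Rbfox3 and Stmn2 are genes that neurons of most kinds express, and their chromatin was followed in 2 sorted fractions of nuclei from the mouse hypothalamus. Members were the rows of the H3K27ac and ATAC region tables that overlap, by at least 1 bp, the mm9 windows chr2:136510000-136630000 (Snap25), chr11:118340000-118790000 (Rbfox3) and chr3:8490000-8580000 (Stmn2). They numbered 51 of 126368 H3K27ac regions (7 for Snap25, 33 for Rbfox3 and 11 for Stmn2) and 34 of 48634 ATAC regions (2, 28 and 4). The tables name no genes and no mm9 annotation was used here, so a region is tied to its gene by the window alone, and no exon, intron, promoter or other neuronal gene can be placed.

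SNAP25 is a membrane-anchored SNARE protein that drives the fusion of synaptic vesicles with the plasma membrane. RBFOX3, better known as the nuclear antigen NeuN, is a splicing factor used to mark mature neurons. Stathmin-2 (STMN2, also SCG10) binds tubulin and regulates microtubules in growing and regenerating axons. Acetylation of histone H3 at lysine 27 (H3K27ac) accompanies active promoters and enhancers and can spread over the body of highly expressed genes. ATAC-seq uses a transposase that inserts sequencing adapters into accessible DNA, and so reads open chromatin.

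The mice were LepRcre/+; SUN1-sfGFP/+ and at least 2 months old, with Cre at the leptin receptor gene switching on a GFP tag of the nuclear envelope. Hypothalami were pooled, and nuclei were sorted as GFP-positive (cells with the leptin receptor LepRb) or GFP-negative (the remaining nuclei, neuronal or not). Fed mice, labelled Fed - Saline, ate freely for 36 h, Fast mice were fasted for 36 h with saline at 12, 24 and 34 h, Lep2 mice were fasted for 36 h with leptin at 5 mg/kg at 34 h, and Lep24 mice were fasted for 36 h with leptin at 5 mg/kg at 12, 24 and 34 h. The sample titles code the schedules as SSS (Fed and Fast), SSL (Lep2) and LLL (Lep24), and the protocol describes no injection for Fed and none before 34 h for Lep2. Each of the 8 groups of treatment and sort had 2 libraries per assay, 16 for H3K27ac and 16 for ATAC, of 75 samples in the series. In pools of nuclei, fewer cells of a type and less signal per cell cannot be told apart. No label says that a group's 2 libraries were made from different animals, and p-values therefore measure only the spread between these libraries.

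All values are the authors' normalized signal per region, whose depth is unknown. In the H3K27ac table, 6 libraries (the first replicate of the Fed, Lep2 and Lep24 groups, whichever sort) had a summed signal on the mitochondrial chromosome of 7266 to 26118, against 941 to 3667 in the other 10. Among the 6, the GFP-positive libraries had 7266.3 (Fed), 14663.1 (Lep2) and 10197.2 (Lep24), and the GFP-negative ones 26118.2, 19508.5 and 22241.9. Within these 6, sort and mitochondrial signal therefore cannot be told apart. These 6 libraries also stood apart at the 3 genes, and H3K27ac results are therefore given over all 16 libraries, over the 10 and over the 6. In ATAC, Fast GFP-positive replicate 2 and Lep2 GFP-positive replicate 2 stood apart on principal components. What set these libraries apart was not tested.

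H3K27ac covered the 3 windows in long chains of adjoining regions. Adjoining pairs numbered 5 in the Snap25 window, 31 in the Rbfox3 window and 7 in the Stmn2 window, and the longest member was 76928 bp, at Rbfox3. Signal per kb, the mean over 16 libraries divided by region length, ran from 10.3 to 45.3 at Snap25 (median 14.7), from 10.6 to 31.7 at Rbfox3 (median 16.9) and from 11.1 to 50.6 at Stmn2 (median 15.9). The median over all H3K27ac regions was 13.9 per kb. Snap25 and Stmn2 shared a shape, with 1 dense region of about the same length near the start of the chain, whereas the densest Rbfox3 region was 55563 bp long and lay near the far end of the window. Start and end follow increasing coordinate throughout. Strand was not placed, so these positions do not show which end of a gene a region lies at.

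**Figure D1:**
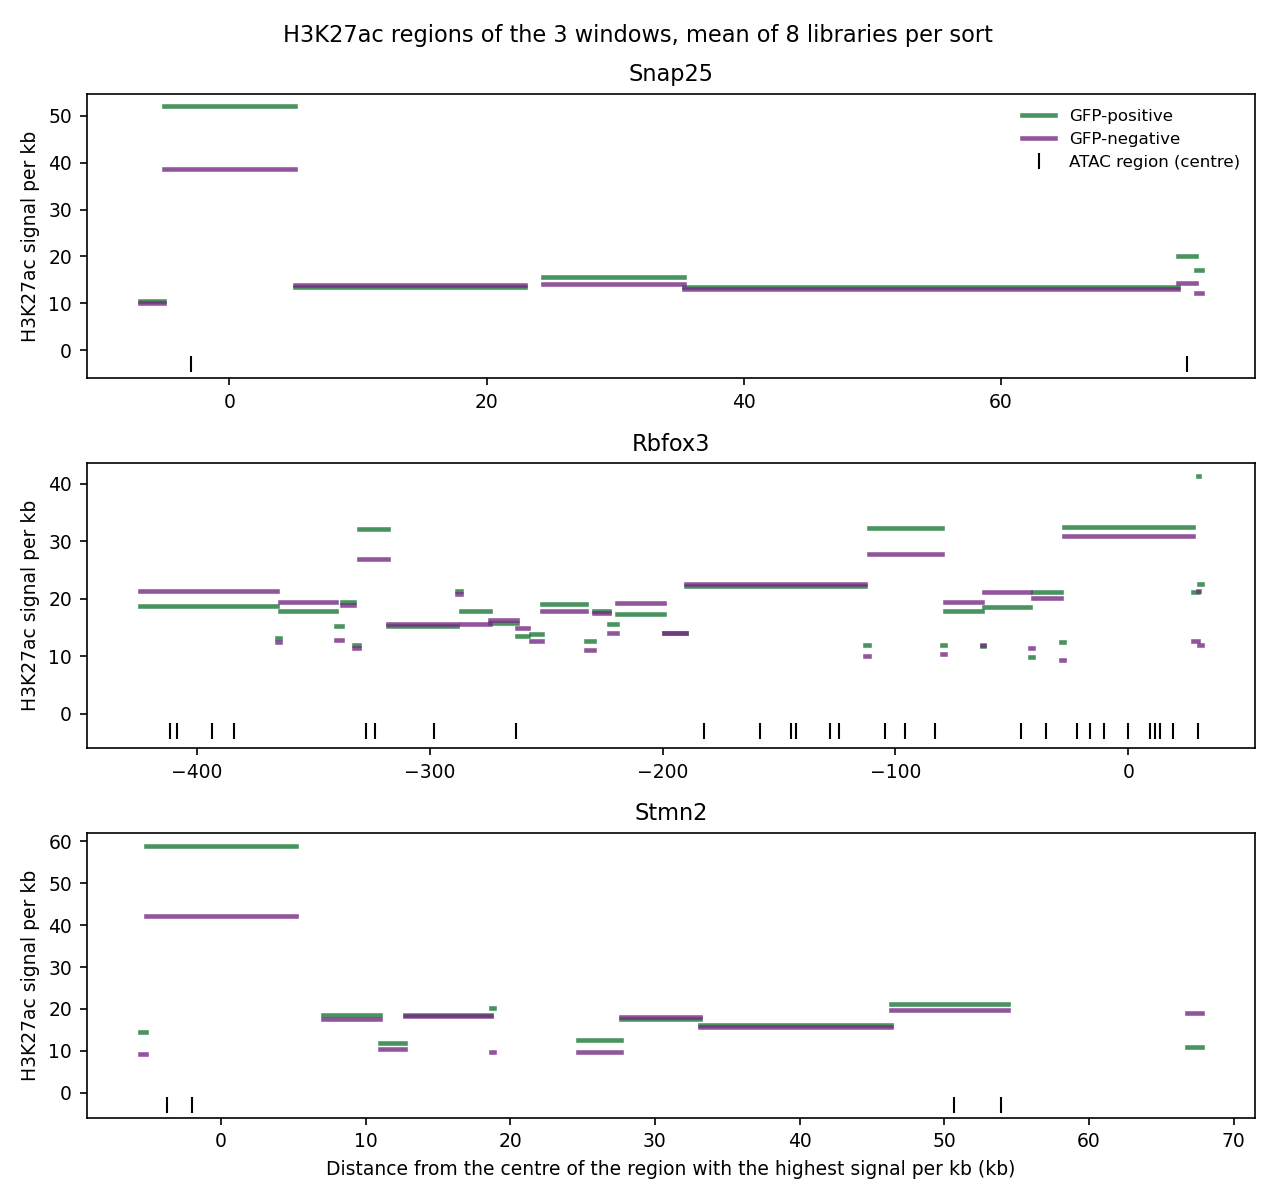
H3K27ac signal per kb of each region (vertical axis) against distance in kb from the centre of the densest region of each window, as bars spanning the region, for the mean of 8 GFP-positive (green) and 8 GFP-negative (purple) libraries, with black ticks at the centres of ATAC regions. The densest region reaches 45.3 per kb at Snap25, 31.7 at Rbfox3 and 50.6 at Stmn2.

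H3K27ac members covered 67.7% of the Snap25 window, 99.7% of the Rbfox3 window and 58.4% of the Stmn2 window. All 34 ATAC members overlapped an H3K27ac member, which for the 28 at Rbfox3 was nearly fixed by that coverage. Of all ATAC regions, 83.1% overlapped an H3K27ac region. An ATAC region overlapped 16 of the 51 H3K27ac members, and for 3 of these, at Rbfox3, it was the same one, chr11:118788714-118789301. The Rbfox3 region chr11:118731091-118786653 held 8 ATAC regions, the dense Stmn2 region held 2 and the dense Snap25 region 1. Per kb, ATAC signal ran from 23.3 to 24.5 at Snap25, from 8.69 to 22.6 at Rbfox3 (median 15.4) and from 13.6 to 37.8 at Stmn2 (median 19.8), beside a median of 19.1 over all ATAC regions.

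The dense Snap25 region carried more H3K27ac signal in GFP-positive than in GFP-negative nuclei within each set of libraries, and over all 16 the call depended on whether the fit had a term for the sets. This region, chr2:136536825-136546968 (10144 bp), had a signal of 420.8 and 574.3 in the 2 Fed GFP-positive libraries against 239.2 and 483.7 in Fed GFP-negative. The Fast libraries gave 639.7 and 641.3 against 486.1 and 497.7. Lep2 gave 296.6 and 645.9 against 228.2 and 503.2, and Lep24 gave 407.4 and 593.0 against 266.7 and 435.7. The GFP-positive library was above the GFP-negative library of the same treatment and replicate number in 8 of 8 comparisons, but the ranges of the sorts overlapped, and replicate 1 of Fed, Lep2 and Lep24 was low in both sorts. Over 16 libraries the means were 527 ± 134 and 393 ± 125 (SD, n = 8 per sort), a log2 difference of 0.45 with a standard error (SE) of 0.22 and a 95% interval of -0.03 to 0.93. By limma with Benjamini-Hochberg adjustment the adjusted p was 0.237, which did not pass 0.05. With the same estimate, the limma adjusted p was 5.06e-05 with a term for the 6 libraries, 0.0228 with the replicate number as a block and 7.04e-05 with the pair of same-numbered libraries as a block.

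Within the sets, the dense Snap25 region passed the test in both. In the 10 libraries the means were 619 ± 32.9 and 481 ± 26.7 (SD, n = 5 per sort), 1.29-fold, with a limma adjusted p of 1.41e-06. In the 6 libraries the difference was 1.52-fold, with a limma adjusted p of 0.000978. There it cannot be told apart from the higher mitochondrial signal of the GFP-negative libraries. The sets differed more than the sorts did, since the 6 libraries lay 0.86 lower on the log2 scale than the 10.

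The longest region of the Snap25 chain did not share this pattern. The long region chr2:136577272-136615676 (38405 bp) had the highest mean signal of the Snap25 window, 509, or 35.7% of the window total. Its GFP-positive values ran from 446.6 to 607.4 and its GFP-negative values from 359.7 to 756.4, with means of 520 ± 59.8 and 499 ± 143 (SD, n = 8 per sort) and a log2 difference of 0.10 (limma adjusted p = 0.752). In the 10 libraries it was 1.19-fold higher in GFP-positive nuclei (limma adjusted p = 0.0010), whereas in the 6 libraries the log2 difference was -0.15 (limma adjusted p = 0.384).

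At the far end of the Snap25 chain, chr2:136615677-136617107 overlaps the other ATAC region of this gene. This H3K27ac region had means 1.33-fold higher in GFP-positive nuclei in the 10 libraries and 1.62-fold higher in the 6 (limma adjusted p = 0.183 in the 6). It had 28.8 ± 5.1 against 20.5 ± 7.7 (SD, n = 8 per sort), a log2 difference of 0.57 with a limma adjusted p of 0.167, which was 0.0170 with a term for the 6 libraries, 0.0573 with the replicate number as a block and 0.0216 with the pair of libraries as a block. Without Lep24 GFP-negative replicate 2 its log2 difference was 0.77 with a limma adjusted p of 0.0499, the only setting with 1 library left out in which a Snap25 region passed. The 416 bp region beside it, chr2:136617108-136617523, had 7.1 ± 1.9 against 5.1 ± 3.5 (limma adjusted p = 0.318), and was listed at 0 in replicate 2 of Lep2 and Lep24 GFP-negative.

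**Figure D2:**
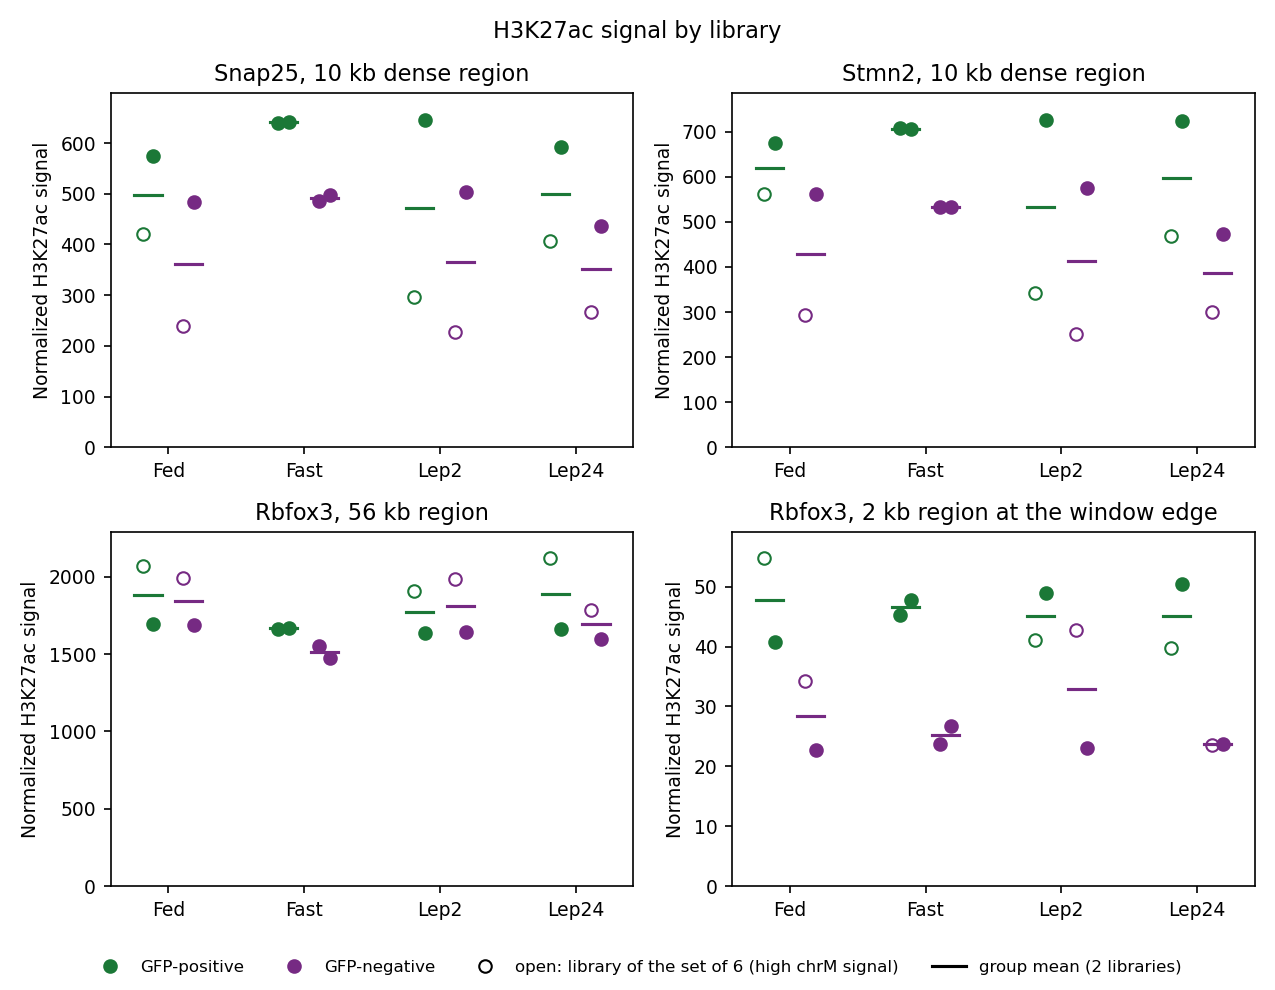
Normalized H3K27ac signal (vertical axes from 0) of 4 regions in each library, by treatment, with GFP-positive in green and GFP-negative in purple, bars at the mean of 2 libraries and open points for the 6 libraries with high mitochondrial signal. The open points lie low at the dense Snap25 and Stmn2 regions and high at the long Rbfox3 region, and within each treatment the green points of one kind lie above the purple ones of that kind at Snap25 and Stmn2.

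Stmn2 repeated the Snap25 pattern. Its dense region, chr3:8507854-8518273 (10420 bp), held 41.9% of the window's H3K27ac signal. Signal was 562.0 and 675.4 in Fed GFP-positive against 293.8 and 562.4 in Fed GFP-negative, and 707.7 and 704.9 in Fast GFP-positive against 532.8 and 532.4. Lep2 gave 341.5 and 726.3 against 252.2 and 575.3, and Lep24 gave 469.5 and 724.5 against 300.5 and 472.8. As at Snap25, the GFP-positive library was the higher one in 8 of 8 comparisons while the ranges of the sorts overlapped. The means were 614 ± 143 and 440 ± 135 (SD, n = 8 per sort), a log2 difference of 0.50 (SE 0.22, 95% interval 0.03 to 0.98) with a limma adjusted p of 0.173. The limma adjusted p was 2.03e-05 with a term for the 6 libraries, 0.0133 with the replicate number as a block and 2.19e-05 with the pair of libraries as a block.

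The dense Stmn2 region also passed the test in each set alone. The 10 libraries gave 708 ± 20.5 against 535 ± 39.5 (SD, n = 5 per sort), 1.32-fold, with a limma adjusted p of 3.44e-07. The 6 libraries gave 1.59-fold with a limma adjusted p of 0.000132, at a level 0.79 lower on the log2 scale than the 10. Sort and mitochondrial signal cannot be told apart in the 6 libraries here either.

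The region at the far edge of the Stmn2 window went the other way. It is chr3:8579842-8580860, which crosses the window's end, and it had 11.2 ± 3.1 in GFP-positive against 19.4 ± 6.1 in GFP-negative libraries (SD, n = 8 per sort). GFP-positive values ran from 7.8 to 16.8 and GFP-negative values from 11.5 to 28.9, overlapping, with the GFP-positive library lower in 8 of 8 comparisons. The log2 difference was -0.73 (SE 0.20), 1.65-fold lower, with a limma adjusted p of 0.0404, and it was -0.92 in the 10 libraries (limma adjusted p = 0.00291) and -0.41 in the 6 (limma adjusted p = 0.643). With 1 library left out, the call was kept only without Lep2 GFP-positive replicate 2 or without Lep2 GFP-negative replicate 1. In the other 14 settings the limma adjusted p was 0.0510 to 0.106, and the log2 difference stayed between -0.80 and -0.58.

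Inside the Stmn2 chain, chr3:8537762-8540695 had 37.0 ± 7.9 against 28.2 ± 6.7 (SD, n = 8 per sort), a log2 difference of 0.39 with a limma adjusted p of 0.157. It passed in the 10 libraries with a log2 difference of 0.47 (limma adjusted p = 0.0251). Of the 11 Stmn2 members, 2 fell below the filter on low signal and were not tested.

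At Rbfox3 the 2 regions called between sorts over 16 libraries lay just beyond the end of the leading one, which was not called. The leading region, chr11:118731091-118786653 (55563 bp), had a mean signal of 1759, and nearly the same signal in both sorts. Fed gave 2067.1 and 1692.8 in GFP-positive against 1993.7 and 1690.6 in GFP-negative libraries, and Fast gave 1664.5 and 1668.3 against 1550.3 and 1473.7. Lep2 gave 1907.9 and 1639.6 against 1986.0 and 1641.0, and Lep24 gave 2118.6 and 1665.4 against 1787.7 and 1600.5. The high values were all replicate 1 of Fed, Lep2 and Lep24, the opposite of the dense Snap25 and Stmn2 regions. The means were 1803 ± 198 and 1715 ± 193 (SD, n = 8 per sort), a log2 difference of 0.07 with a 95% interval of -0.13 to 0.27 (limma adjusted p = 0.698).

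Just beyond the end of that block, 2 Rbfox3 regions were higher in GFP-positive nuclei. The 2186 bp region chr11:118786654-118788839, which starts at the next base, had 54.7 and 40.8 in Fed GFP-positive against 34.2 and 22.7 in Fed GFP-negative libraries, and 45.3 and 47.8 against 23.7 and 26.8 in Fast. Lep2 gave 41.1 and 49.0 against 42.7 and 23.1, and Lep24 gave 39.7 and 50.5 against 23.6 and 23.7. Apart from Lep2 GFP-negative replicate 1, at 42.7, each GFP-negative library was below each GFP-positive one. The means were 46.1 ± 5.3 and 27.6 ± 7.2 (SD, n = 8 per sort), a log2 difference of 0.75 (SE 0.16), 1.68-fold, with a limma adjusted p of 0.0127. The call held with each library left out in turn, and the log2 difference was 0.93 in the 10 libraries and 0.44 in the 6 (limma adjusted p = 0.394 in the 6).

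The last Rbfox3 member, chr11:118789140-118790373, had 27.8 ± 5.7 in GFP-positive against 14.7 ± 6.2 in GFP-negative libraries (SD, n = 8 per sort), 1.91-fold. Values ran from 20.6 to 35.5 and from 8.2 to 26.4, and overlapped. The log2 difference was 0.94 (SE 0.22) with a limma adjusted p of 0.0208. The call was lost without Fed GFP-positive replicate 2, Fast GFP-positive replicate 1, Fast GFP-negative replicate 1 or Lep24 GFP-positive replicate 2, with limma adjusted p of 0.0558 to 0.0624 and log2 differences of 0.83 to 0.92. Between these regions lies a 300 bp piece, chr11:118788840-118789139, with a log2 difference of 0.78 (limma adjusted p = 0.150, and 0.0232 with a term for the 6 libraries, 0.0465 with the replicate number as a block and 0.0343 with the pair of libraries as a block). The next region beyond the window, chr11:118791523-118796254, had means of 84.4 against 50.7 and a log2 difference of 0.76 (limma adjusted p = 0.0136), so the window's edge cuts through this higher stretch.

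Counted over all members, the share called was not above that of the whole table. In the test of GFP-positive against GFP-negative over 16 libraries, 3 of 49 tested members passed a limma adjusted p of 0.05 (6.12%), against 9.22% of the 113756 regions tested. They were the 2 higher Rbfox3 regions and the lower Stmn2 region above. An unadjusted p under 0.05 was found at 9 of the 49 members, against 27662 of the 113756 regions. The difference was positive at 38 members and negative at 11, with a median of 0.09 on the log2 scale beside 0.03 over all regions. No member had 8 GFP-positive values clear of its 8 GFP-negative values, which 2.32% of all regions had.

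In the 10 libraries, 17 of 49 members passed (34.7%, 15 higher and 2 lower in GFP-positive nuclei), against 32.4% of all regions. They were 4 of 7 at Snap25, 10 of 33 at Rbfox3 and 3 of 9 at Stmn2. In the 6 libraries 4 of 49 passed (8.16%), against 4.10% of all regions. The 4 members called in the 6 libraries were also called in the 10, with the same sign. Besides the dense Snap25 and Stmn2 regions they were a pair of long Rbfox3 regions, named here after their values were seen.

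The first of this pair, chr11:118647650-118678885, contains the Rbfox3 ATAC region with the highest mean. It had values of 932.7, 969.75 and 1123.9 (lowest, median and highest) in GFP-positive and 789.4, 865.8 and 966.1 in GFP-negative libraries, with the GFP-positive library higher in 8 of 8 comparisons and 1.12-fold and 1.23-fold differences of means in the 10 and the 6 libraries. The other, chr11:118334339-118393286, crosses the near edge of the Rbfox3 window. It had 802.0, 864.35 and 1603.6 in GFP-positive against 773.0, 999.95 and 1928.5 in GFP-negative libraries and was lower in 7 of 8 comparisons. Its log2 difference was -0.13 in the 10 libraries (limma adjusted p = 0.0360) and -0.23 in the 6 (limma adjusted p = 0.0139).

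**Figure D3:**
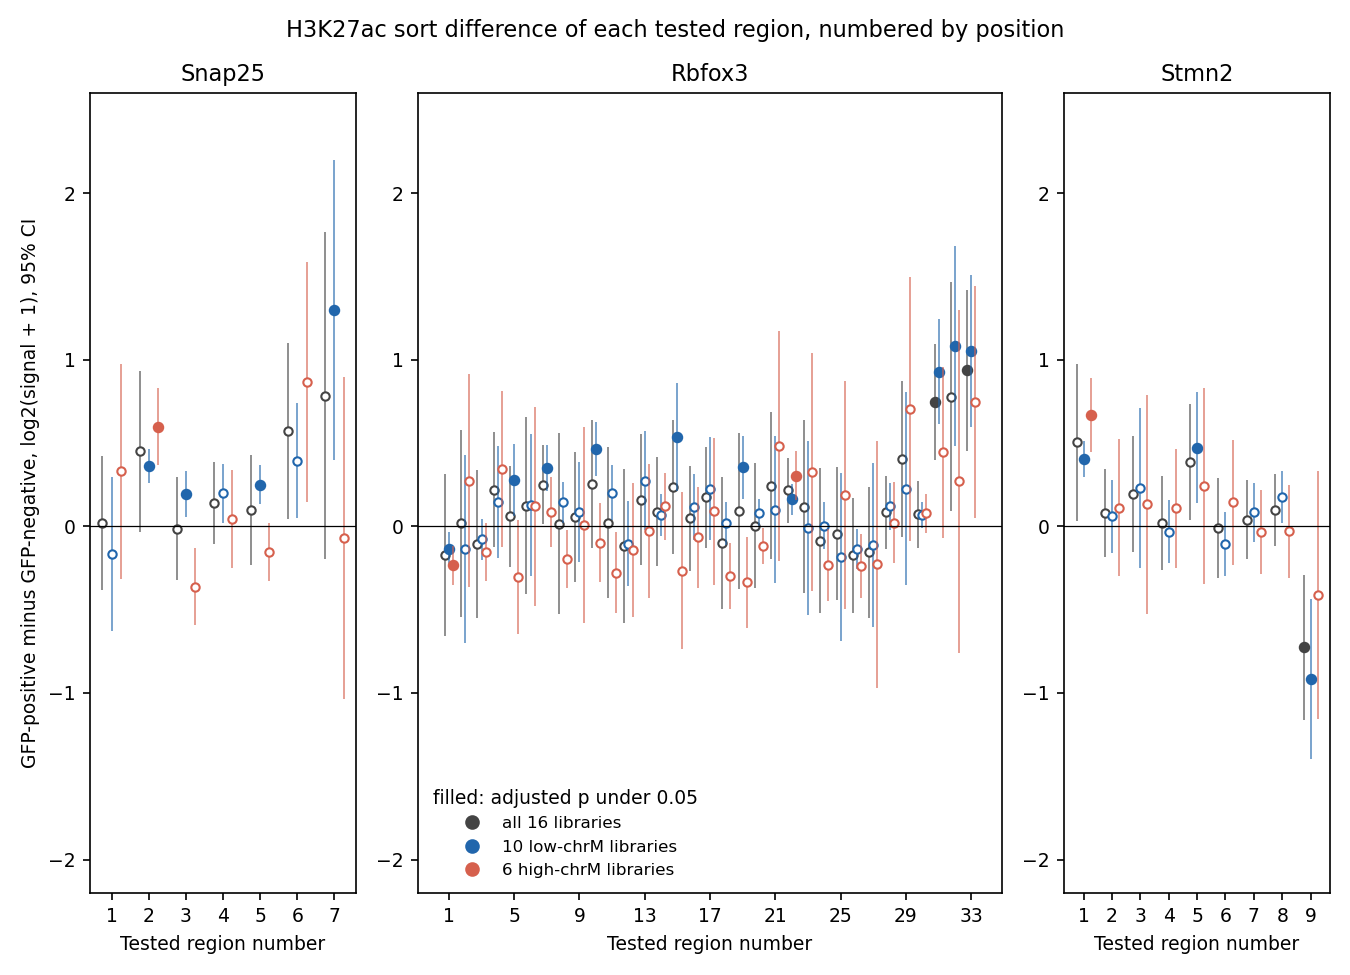
GFP-positive minus GFP-negative difference in log2(signal + 1) with its 95% interval for each tested H3K27ac region, numbered by position, over 16 libraries (grey), the 10 with low mitochondrial signal (blue) and the 6 with high signal (red), filled where the adjusted p was under 0.05. The second Snap25 and the first Stmn2 region are filled in blue and red, and the last Rbfox3 regions reach 0.75 and 0.94 over 16 libraries.

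Whether the sort difference itself depended on the set was tested with 1 term in limma, a test chosen after seeing the data. It passed at 7 of 49 members (7.30% of all regions passed), each with a difference more negative in the 6 libraries than in the 10. Of these, 2 were in the Snap25 chain, namely chr2:136546969-136564925 (change of -0.56, limma adjusted p = 0.0024) and the long chr2:136577272-136615676 (change of -0.41, limma adjusted p = 0.00772). The other 5 lay in the Rbfox3 window between 118421181 and 118568982. The largest change there was -0.69, at chr11:118559512-118568982 (limma adjusted p = 0.00367). At the dense regions the change was 0.24 for Snap25 (limma adjusted p = 0.167) and 0.26 for Stmn2 (limma adjusted p = 0.120), which did not pass. Sort and mitochondrial signal go together in the 6 libraries, and the changes in this paragraph cannot be told apart from that imbalance.

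ATAC signal in the dense H3K27ac regions of Snap25 and Stmn2 did not show a sort difference past the test. The Snap25 ATAC region chr2:136537586-136540262 had 78.6 and 53.9 in Fed GFP-positive against 64.3 and 56.9 in Fed GFP-negative libraries, and 56.7 and 58.5 against 77.7 and 58.8 in Fast. Lep2 gave 57.4 and 52.1 against 72.1 and 62.2, and Lep24 gave 66.9 and 50.1 against 75.6 and 57.4. The ranges overlapped, and the GFP-positive library was the lower one in 7 of 8 comparisons. The means were 59.3 ± 9.3 and 65.6 ± 8.4 (SD, n = 8 per sort), a log2 difference of -0.15 with a 95% interval of -0.39 to 0.09 (limma adjusted p = 0.458).

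In the dense Stmn2 region, both ATAC regions overlapped between sorts. The first, chr3:8508917-8509790, had the highest ATAC signal per kb of the 3 genes and means of 31.8 ± 4.8 against 34.3 ± 4.6 (SD, n = 8 per sort), with a log2 difference of -0.11 (limma adjusted p = 0.666). The other, chr3:8510086-8512094, had 35.6, 49.2 and 53.9 (lowest, median and highest) in GFP-positive and 32.2, 43.65 and 49.0 in GFP-negative libraries, and a log2 difference of 0.18 with a 95% interval of -0.06 to 0.42 (limma adjusted p = 0.356). Away from the dense regions, the ATAC region at the far end of the Snap25 chain, chr2:136616109-136616724, had a log2 difference of 0.20 (limma adjusted p = 0.536), and the Stmn2 region chr3:8563066-8564436 one of -0.10 (limma adjusted p = 0.759).

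At Rbfox3, 3 ATAC regions passed the test with more signal in GFP-positive nuclei, a share of members near that of all regions. They were 3 of the 30 ATAC members tested (10.0%), against 9.79% of the 43775 ATAC regions tested. An unadjusted p under 0.05 was found at 6 of the 30 members, against 11036 of the 43775 regions. The difference was positive at 21 members and negative at 9, with a median of 0.13 on the log2 scale beside -0.01 over all regions. No ATAC member had sorts that did not overlap, which 1.60% of all regions had.

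The first of the 3, chr11:118576125-118577280, had 31.1 and 16.7 in Fed GFP-positive against 10.3 and 20.0 in Fed GFP-negative libraries, and 22.3 and 32.9 against 13.9 and 14.9 in Fast. Lep2 gave 18.9 and 27.5 against 9.4 and 15.5, and Lep24 gave 17.8 and 15.8 against 13.2 and 11.3. Within Fast, Lep2 and Lep24 the sorts were apart, and within Fed they overlapped. The means were 22.9 ± 6.8 and 13.6 ± 3.4 (SD, n = 8 per sort), a log2 difference of 0.70 (SE 0.19) with a limma adjusted p of 0.0206.

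The next, chr11:118364855-118366143, had 13.9, 20.4 and 32.7 (lowest, median and highest) in GFP-positive and 8.7, 13.05 and 19.9 in GFP-negative libraries. It was higher in 8 of 8 comparisons, with a log2 difference of 0.59 (limma adjusted p = 0.0269). The last, chr11:118345783-118349104, had 33.2, 44.8 and 62.7 against 24.6, 33.3 and 41.9 and was also higher in 8 of 8 comparisons, with a log2 difference of 0.43 (limma adjusted p = 0.0457). The 2 regions lie inside the long H3K27ac region at the near edge of the window, whose H3K27ac signal was lower in GFP-positive nuclei in both sets.

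These 3 ATAC calls were lost when some libraries were left out. Without the 2 GFP-positive libraries that stood apart, their log2 differences were 0.56, 0.47 and 0.35 with limma adjusted p of 0.0814, 0.110 and 0.139. No member passed by limma in that setting (9.49% of all regions did). There 6 members had an unadjusted p under 0.05, against 10569 of the 43775 regions. None passed without Lep2 GFP-positive replicate 2 alone (log2 differences of 0.63, 0.51 and 0.40) or without Lep2 GFP-negative replicate 1 alone (0.61, 0.53 and 0.34). With any 1 of the 16 libraries left out, the limma adjusted p ran from 0.0106 to 0.0627 at the first region, from 0.0145 to 0.0756 at the next and from 0.0233 to 0.130 at the last. A single member passed without Fed GFP-positive replicate 2, without Fed GFP-negative replicate 1 or without Fast GFP-negative replicate 1.

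The Rbfox3 ATAC region with the highest mean signal (81.6), chr11:118651964-118656832, did not pass the test. It is 4869 bp long, with a signal of 16.8 per kb, and had 76.2, 84.2 and 96.2 (lowest, median and highest) in GFP-positive and 67.3, 79.0 and 90.7 in GFP-negative libraries. The log2 difference was 0.10 with a 95% interval of -0.10 to 0.31 (limma adjusted p = 0.563). The region with the highest ATAC signal per kb at Rbfox3, chr11:118374678-118374880, had a mean signal of 4.59, too low to be tested.

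**Figure D4:**
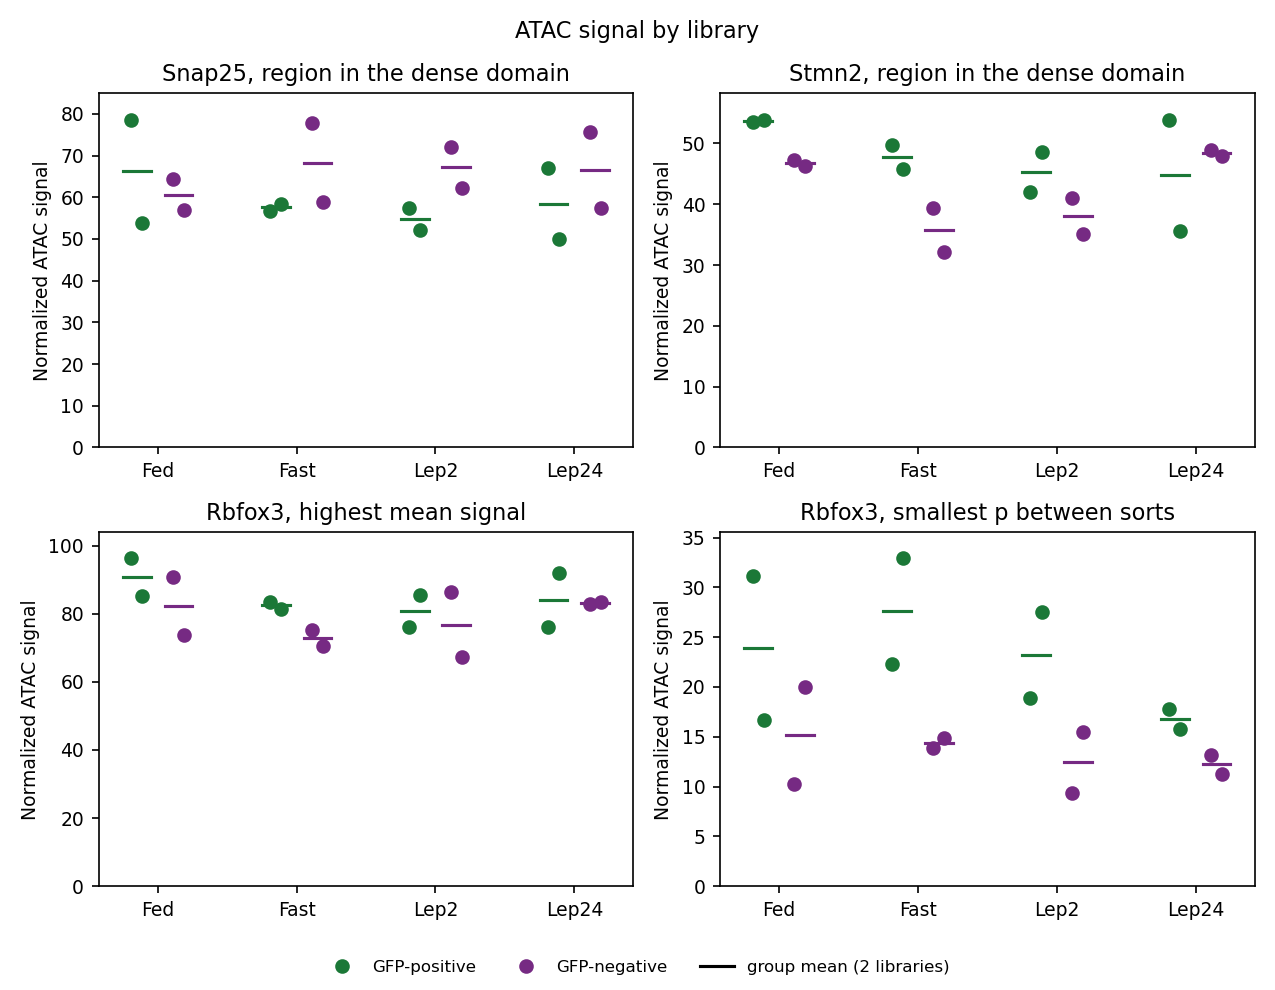
Normalized ATAC signal (vertical axes from 0) of 4 regions in each library, by treatment, with GFP-positive in green, GFP-negative in purple and bars at the mean of 2 libraries. The sorts overlap at Snap25, Stmn2 and the Rbfox3 region with the highest mean, and at the Rbfox3 region with the smallest p the means are 22.9 and 13.6.

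Over 16 equally weighted libraries with 8 group means as the only terms, no member was called within a single treatment or between treatments. The tests of the sort within Fed, Fast, Lep2 and Lep24, of fasting (Fast against Fed) and of each leptin schedule against Fast in either sort, and of the difference of those changes between sorts gave 0 of 49 H3K27ac and 0 of 30 ATAC members by limma. Of all regions, 0% to 0.103% (H3K27ac) and 0% to 0.199% (ATAC) were called in the same tests. At an unadjusted p under 0.05, the H3K27ac members numbered 5 for the sort in Fast, 2 or fewer in each other test of the sort within a treatment or of a treatment change, and 0 for the differences between sorts. The ATAC members numbered 4 for the sort in Fast, 2 or fewer in each other such test and 0 for the differences between sorts. Of all 113756 H3K27ac regions, 15448 had an unadjusted p under 0.05 for the sort in Fast, and 2178 to 8861 in the other tests. Of all 43775 ATAC regions, 5090 did for the sort in Fast, and 653 to 5157 in the other tests. Each group had 2 libraries, and the 95% interval of a comparison of 2 groups reached a median of 0.79 to either side on the log2 scale for H3K27ac and 0.75 for ATAC.

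At the dense Snap25 region, Fast minus Fed was 0.38 in GFP-positive nuclei with a 95% interval of -0.58 to 1.34, and 0.53 in GFP-negative nuclei with an interval of -0.43 to 1.49. At the dense Stmn2 region Fast minus Fed was 0.20 (interval of -0.74 to 1.14) and 0.39 (interval of -0.55 to 1.33) in the same order. Replicate 1 of Fed belonged to the 6 libraries and no Fast library did, so the set and the treatment moved together in these comparisons. Lep2 and Lep24 were each compared with the same Fast libraries and shared their spread.

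Over the 10 libraries, where only Fast has 2 libraries a sort and gives the spread, the sort difference was called in Fast at 12 of 49 members (11 higher, 19.9% of all regions called), in Lep2 at 5 (9.28%), in Lep24 at 4 (10.8%) and in Fed at 0 (5.40%). The dense Snap25 region was among them in Fast (log2 difference of 0.38), Lep2 (0.36) and Lep24 (0.44), and so was the dense Stmn2 region, with 0.41, 0.34 and 0.61. In these 10 libraries 1 member changed with treatment, the 416 bp Snap25 region chr2:136617108-136617523, lower in Lep24 than in Fast GFP-negative nuclei (limma adjusted p = 0.0382, with 0.752% of all regions called). It had 5.8 and 6.6 in Fast and was listed at 0 in the 1 remaining Lep24 library, so no fold is given. For the other treatment changes in the 10 libraries 0 members passed, against 0.000879% of all regions for Fast minus Fed in GFP-positive nuclei, 0.0853% in GFP-negative nuclei, 0.000879% for Lep2 minus Fast and 0.00352% for Lep24 minus Fast in GFP-positive nuclei. With the set of 6 added as a term over 16 libraries, the sort difference was called at 2 members in Fed (2.91% of all regions), 2 in Fast (10.0%), 0 in Lep2 (2.26%) and 2 in Lep24 (3.28%).

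Summed over each window, H3K27ac was slightly higher in GFP-positive nuclei at Snap25 and Stmn2, and ATAC at Rbfox3. These totals are descriptions without a test. The Stmn2 H3K27ac total was 1358 ± 154 in GFP-positive against 1157 ± 148 in GFP-negative libraries (SD, n = 8 per sort), higher in 8 of 8 comparisons, with a ratio of 1.17 over all libraries, 1.16 in the 10 and 1.19 in the 6. The Snap25 total was 1515 ± 64.7 against 1341 ± 91 (SD, n = 8 per sort), a ratio of 1.13, which was 1.21 in the 10 libraries and 1.00 in the 6. The Rbfox3 total was 9789 ± 1720 against 9707 ± 2298 (SD, n = 8 per sort), a ratio of 1.01, with 1.06 in the 10 libraries and 0.953 in the 6. Summed over all H3K27ac regions, the 6 libraries gave 9512760 to 9936570 in GFP-positive and 10327200 to 10963300 in GFP-negative nuclei. The 10 libraries gave 9247620 to 9384880 and 9490760 to 9601340 in the same order. The H3K27ac window ratios were not adjusted for these sums.

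The Rbfox3 H3K27ac total was highest in the 6 libraries with high mitochondrial signal. These 6 libraries gave 11741 to 12644, and the other 10 libraries gave 7437 to 8779. At Stmn2 they gave totals of 977 to 1279 against 1158 to 1495 in the 10, ranges that overlapped.

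The Rbfox3 ATAC total was 608 ± 67 in GFP-positive against 538 ± 34 in GFP-negative libraries (SD, n = 8 per sort), higher in 8 of 8 comparisons, with a ratio of 1.13. The Snap25 total was 75.6 ± 11.7 against 79.6 ± 7.7, a ratio of 0.95, and the Stmn2 total 102 ± 9.2 against 101 ± 7.4, a ratio of 1.01 (SD, n = 8 per sort). By treatment, the Rbfox3 ATAC total of GFP-positive nuclei was 609.1 and 644.8 in Fed, 589.8 and 696.8 in Fast, 537.5 and 679.1 in Lep2 and 499.3 and 609.0 in Lep24.

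**Figure D5:**
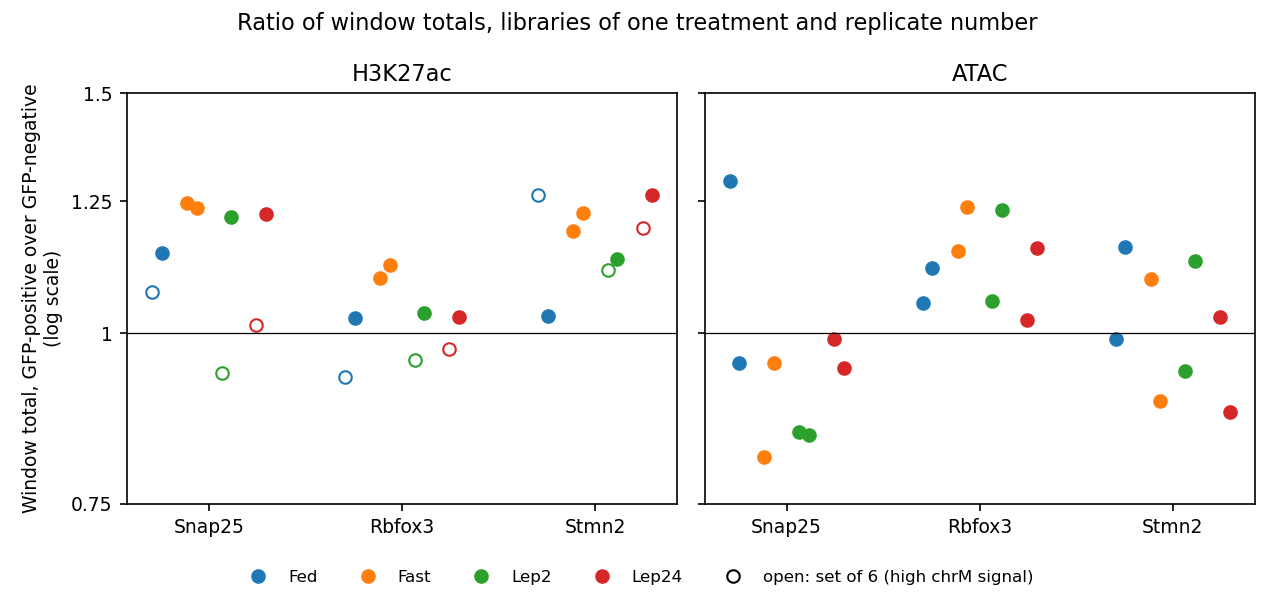
Ratio of the window total in GFP-positive to that in GFP-negative nuclei (log scale) for the 2 libraries sharing a treatment and replicate number, by gene and coloured by treatment, with open points for the 6 H3K27ac libraries with high mitochondrial signal. H3K27ac ratios at Stmn2 and ATAC ratios at Rbfox3 lie above 1 in 8 of 8 comparisons, and the open H3K27ac points at Snap25 and Rbfox3 lie below the filled ones of the same treatment.

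Other regions followed the leading regions of these genes across libraries, and their likeness is given as a description. The dense Stmn2 region had a Pearson r of 0.992 over 16 libraries, on log2(signal + 1), with chr11:92957593-92965725 and with chr5:129454754-129460075, and of 0.989 with chr11:41988076-41998714, and 2.10% of all regions exceeded r = 0.9 with it. The long Snap25 region was closest to chr1:67041375-67071072 (r = 0.973). The points share libraries, the sets of 6 and 10 included. For ATAC the 3 closest regions of each leading region had r of 0.800 to 0.881.

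The authors' deposited table called 4 H3K27ac members between sorts at a false discovery rate under 0.05. In the authors' deposited table these were the dense Stmn2 region (FDR 0.000902), the dense Snap25 region (0.00191), the Rbfox3 region chr11:118786654-118788839 (0.0172) and the Rbfox3 region chr11:118472325-118484853 (0.0427). The last had 1.38-fold higher means in GFP-positive nuclei in the 10 libraries and 0.936 times those of GFP-negative nuclei in the 6. The authors' FDR did not pass at chr11:118789140-118790373 (0.187) or chr3:8579842-8580860 (0.0966), both called here over 16 libraries. It was missing at 5 of the 51 members, and the share of all regions the authors called is not given here. Within a treatment, the authors' deposited table called the sort at chr11:118472325-118484853 in Fast (FDR 0.0173), at the dense Stmn2 region in Lep24 (FDR 0.0247) and at no member in Lep2. The FDR was missing there at 10 members in Fast, 17 in Lep24 and 21 in Lep2. For leptin within either sort, and for ATAC in any comparison, the authors' deposited table called 0 members. The ATAC FDR was missing at 6 of 34 members for the sort over treatments and at 7 for the sort in Lep2.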

How the data were processed

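The 16 H3K27ac and 16 ATAC libraries were analysed, and RNA (23) and input samples (16 for ChIP, 4 for ATAC) were left out. Per the file headers, the authors deposited normalized signal per region and library, with log2 fold changes, p-values and FDR of their own comparisons, which are quoted as theirs. The normalization method is not given in the sources used. Whole reads could not be recovered, so no count model was used. The submitters' processing notes name mm9 as the build and, without roles, DESeq2 1.16.1, HTSeq 0.6.0, MACS2, Bowtie2 2.2.6, Bowtie 1.2, STAR 2.5.2b and CASAVA 1.8. The 16 other per-sample columns of each table were not used.

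Regions in the lowest 10% of mean signal (below 5.96 for H3K27ac and 5.44 for ATAC) were left out. Values on log2(signal + 1), a scale that understates changes of low regions, entered limma 3.58.1 (R 4.3.3) with 8 group means, a trended prior and two-sided Benjamini-Hochberg adjusted p-values over all regions tested (113756 and 43775). Fits on the sets of 10 or 6 libraries had a term for treatment and one for sort. The fits were also run on simulated data in which libraries varied independently and formed no sets. That simulation cannot show how the fits behave where libraries deviate together, as in these sets. Figures used matplotlib 3.10.9. Coordinates are mm9 and count from 1.

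The members, windows and lists were chosen with earlier results of these data known. The regions named were, per gene and assay, the highest mean, the highest signal per kb, the 3 smallest p between sorts and any member called elsewhere, at most 3 per comparison. Alternatives were quantile normalization, pseudocounts of 0.1 and 5, no filter, an adjusted p of 0.01, replicate blocks, library weights, each replicate number alone, each library left out, regions wholly inside the windows, and the sets of libraries.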

Additional observations from a re-analysis of the deposited data

How the results depend on the processing

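Counts of members called between sorts depended on how the spread between libraries was modelled. Over 16 libraries H3K27ac gave 0 at Snap25, 2 at Rbfox3 and 1 at Stmn2 (9.22% of all regions). With a term for the 6 libraries the counts were 2, 8 and 2 (26.6% of all regions), and in the 10 libraries 4, 10 and 3 (32.4%). In replicate 2 alone they were 3, 6 and 2 (24.1%). Snap25 had 1 in replicate 1 alone (5.92% of all regions) and 1 in the 6 libraries (4.10%). At an adjusted p of 0.01 Rbfox3 and Stmn2 had 0, and the share of all regions at that threshold is not given. Leaving out 1 library gave 0 to 1 at Snap25, 1 to 3 at Rbfox3 and 0 to 1 at Stmn2 (4.56% to 12.2% of all regions). Sort calls within a treatment, 0 in all, became 5 with library weights, 6 with the set as a term, and 21 in the 10 libraries, where 1 treatment change was called. For the set term and the 10 libraries the shares of all regions are given above, and for library weights none is given. The H3K27ac Snap25 window ratio was 1.00 in the 6 libraries. For ATAC, Rbfox3 had 3 calls (9.79% of all regions) and 1 without the filter (6.33%). It had 0 at an adjusted p of 0.01, again with no share of all regions given. It had 0 in replicate 2 alone (2.81%) and 0 without the 2 libraries that stood apart (9.49%). With 1 library left out it had 0 to 4 (5.61% to 13% of all regions). ATAC treatment changes gave 0 to 1 call with 1 library left out, the 1 being chr11:118599242-118602102 (Rbfox3) in Lep24 against Fast GFP-positive without Fast GFP-positive replicate 1 (limma adjusted p = 0.0227). Window ratios with 1 library left out stayed on their side of 1 except at Rbfox3 for H3K27ac (0.976 to 1.05) and Stmn2 for ATAC (0.994 to 1.03). Quantile normalization and pseudocounts of 0.1 and 5 moved no count of calls by over 1.5 times.

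Directions turned at weak differences. The long Snap25 H3K27ac region chr2:136577272-136615676 had a log2 sort difference of -0.0508 in replicate 1 alone and -0.154 in the 6 libraries, and -0.0236 to 0.223 with 1 library left out, below 0 without Lep2 GFP-negative replicate 2. Its neighbour chr2:136617108-136617523 had -0.0374 in replicate 1 alone and -0.0706 in the 6 libraries. For ATAC, chr11:118651964-118656832 (Rbfox3) had -0.0165 in replicate 1 alone, chr2:136616109-136616724 (Snap25) -0.0791 in replicate 2 alone, and chr3:8563066-8564436 (Stmn2) -0.215 to 0.0115 with 1 library left out, above 0 without Fast GFP-positive replicate 2. The cause was not tested. No label says what a replicate number stands for. Deviations of the same-numbered libraries of 1 treatment correlated positively in 4 of 4 treatments in each assay. In H3K27ac this correlation was over 0.1 in 3 of 4 treatments (0.00954 in Fast, up to 0.495). In ATAC it was over 0.1 in 2 of 4 (0.0376 to 0.141). Groups of different treatments reached higher values, with maxima of 0.550 (H3K27ac) and 0.176 (ATAC) and minima of -0.163 and 0.0238. Positive values were thus not particular to 1 treatment, and cannot show whether same-numbered libraries of a treatment belong together. The numbers were therefore not taken to pair the samples, and the counts out of 8 comparisons are descriptions. With the replicate number as a block, H3K27ac calls were 1 at Snap25, 3 at Rbfox3 and 2 at Stmn2 (16.2% of all regions), and ATAC calls at Rbfox3 were 5 (14.2%). With the pair of libraries as a block they were 2, 7 and 2 (24.4%) and 5 (14%). In that fit 4 H3K27ac calls of the sort within a treatment appeared, for which no share of all regions is given. Depth behind the signal is unknown, and 2 libraries per group limit what treatment comparisons can show.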
